A study of Homo sapiens with 10 samples.

Results

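The widest binding sites of wild-type MYC were described, the top 10.0% of 4749 sites in the list of peaks called for that protein, which left 4274 others. They were chosen by the width of the called interval, end minus start, with ties settled by file order. They covered 835 kb of the 4173 kb under all wild-type (WT) peaks, or 20%. Width is a property of the WT call, so what follows treats the WT values of these peaks as a description. The 3A list, the 7A list and the gene annotation took no part in the choice.

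The data came from ChIP-Rx, chromatin immunoprecipitation with sequencing in which 10% of mouse NIH3T3 fibroblasts was mixed into each lysate as an external reference. The host was U2OS, a human osteosarcoma cell line, with its own MYC gene knocked out and a FLAG-tagged MYC transgene under doxycycline control. Wild-type MYC or one of the mutant forms labelled 3A and 7A was induced with 1 µg/mL doxycycline for 24 h, and each was precipitated with an anti-FLAG antibody in 2 libraries. The WT line was also precipitated without doxycycline in 2 libraries, and 1 input library was made with and 1 without doxycycline. All groups share the MYC knockout and the tagged transgene, and the labels do not describe the substitutions behind the names 3A and 7A. The 3 lists analysed here, 1 per induced protein, held 4749 WT, 845 3A and 64 7A peaks. Each induced protein had 2 libraries and 1 list, with no replicate list beside it, and how the libraries entered the list is not stated. No list from the uninduced or input libraries was used. Differences between peak groups therefore carry a counting interval (95%, Wilson for a share and Newcombe for a difference) and no test over replicates. Read totals per library are not in these lists, so the depth behind them is unknown.

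MYC is a transcription factor of the basic helix-loop-helix leucine zipper family. It pairs with MAX and binds E-boxes, short DNA motifs whose canonical form is CACGTG, mostly in open promoters of active genes. Its best known targets make ribosomes, nucleotides and glycolytic enzymes. A called peak is the stretch over which precipitated fragments exceed the local background, so a wide one can hold a single broad site or several close ones.

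The promoters below belong to the 5 widest peaks whose summit, the point of highest signal, lay within an annotated promoter window, and they show the sequence under such a summit. Each is the run of 250 bases before the annotated start from RefSeq, build GRCh38.p14, 5′ to 3′ on the strand of the gene. Capitals mark the canonical E-box CACGTG and the variant CACGCG, which reads CGCGTG on the other strand. LINC01126 lies at chr2:43226961-43227210 (plus strand), ARHGDIA at chr17:81871338-81871587 (minus), FJX1 at chr11:35618210-35618459 (plus), PKM at chr15:72231191-72231440 (minus) and SERBP1 at chr1:67430403-67430652 (minus).
LINC01126: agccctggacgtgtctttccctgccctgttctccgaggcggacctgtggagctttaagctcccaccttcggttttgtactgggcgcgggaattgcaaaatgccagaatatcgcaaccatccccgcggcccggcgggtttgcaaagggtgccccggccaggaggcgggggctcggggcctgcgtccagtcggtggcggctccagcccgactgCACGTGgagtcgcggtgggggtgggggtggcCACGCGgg
ARHGDIA: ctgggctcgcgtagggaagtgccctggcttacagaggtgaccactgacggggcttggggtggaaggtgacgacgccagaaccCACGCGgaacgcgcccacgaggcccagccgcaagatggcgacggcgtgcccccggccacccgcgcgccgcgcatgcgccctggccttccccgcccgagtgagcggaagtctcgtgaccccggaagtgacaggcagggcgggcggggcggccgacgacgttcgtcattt
FJX1: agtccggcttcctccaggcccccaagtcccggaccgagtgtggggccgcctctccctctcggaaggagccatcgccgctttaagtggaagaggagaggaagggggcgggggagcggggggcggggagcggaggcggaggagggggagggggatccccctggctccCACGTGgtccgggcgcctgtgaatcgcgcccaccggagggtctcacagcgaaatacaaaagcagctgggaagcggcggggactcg
PKM: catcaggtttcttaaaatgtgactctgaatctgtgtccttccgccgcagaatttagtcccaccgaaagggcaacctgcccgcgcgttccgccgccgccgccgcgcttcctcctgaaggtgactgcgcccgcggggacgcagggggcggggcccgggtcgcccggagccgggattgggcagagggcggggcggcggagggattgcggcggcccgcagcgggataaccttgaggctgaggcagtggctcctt
SERBP1: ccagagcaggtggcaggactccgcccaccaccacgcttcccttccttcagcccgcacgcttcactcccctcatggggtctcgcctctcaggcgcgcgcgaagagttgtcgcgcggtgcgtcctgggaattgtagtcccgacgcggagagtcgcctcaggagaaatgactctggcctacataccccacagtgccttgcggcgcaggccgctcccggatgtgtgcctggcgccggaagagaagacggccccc
LINC01126, a non-coding gene next to ZFP36L2, held 1 of each motif, and the WT summit lay 23 bp before its start. ARHGDIA held 1 CACGCG, and FJX1 held 1 CACGTG. The promoters of the glycolytic enzyme gene PKM and of SERBP1, which encodes an mRNA-binding protein, held neither motif in this window although their peaks spanned 2506 and 2485 bp.

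Widths of the widest peaks ran from 1394 to 3933 bp with a median of 1631 bp (quartiles 1495 and 1884), against 191 to 1394 bp with a median of 750 bp in the other 4274 WT peaks. Of them, 87 reached 2000 bp and 6 reached 3000 bp. At the limit, the last peak inside was at COMTD1 (chr10:75234949-75236342, fold 6.93) and the first outside at TSC22D1 (chr13:44576868-44578261, fold 7.13). Both were 1394 bp wide, so file order decided between them, and neither overlapped a 3A peak.

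The deposited fold enrichment, the authors' ratio of precipitated to background signal at the summit, had a median of 6.35 in the widest peaks (quartiles 4.77 and 9.01, range 2.49 to 30.5) and of 5.05 in the other WT peaks (4.12 and 6.51). The summit pileup, the number of overlapping fragments recovered from the fold and p-value of each peak, had medians of 103 and 69.0. The local background recovered the same way had medians of 15.2 and 12.8. Width and height were therefore related but far from the same: the widest peaks made up 5.64% of the WT peaks in the lowest of 4 groups of equal size by fold, 7.25% and 9.01% of the middle groups and 18.1% of the highest. The summit lay outside the central 50% of the interval in 172 of the widest (36.2%) and in 435 of the others (10.2%), so many wide peaks were lopsided about their strongest point.

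**Figure D1:**
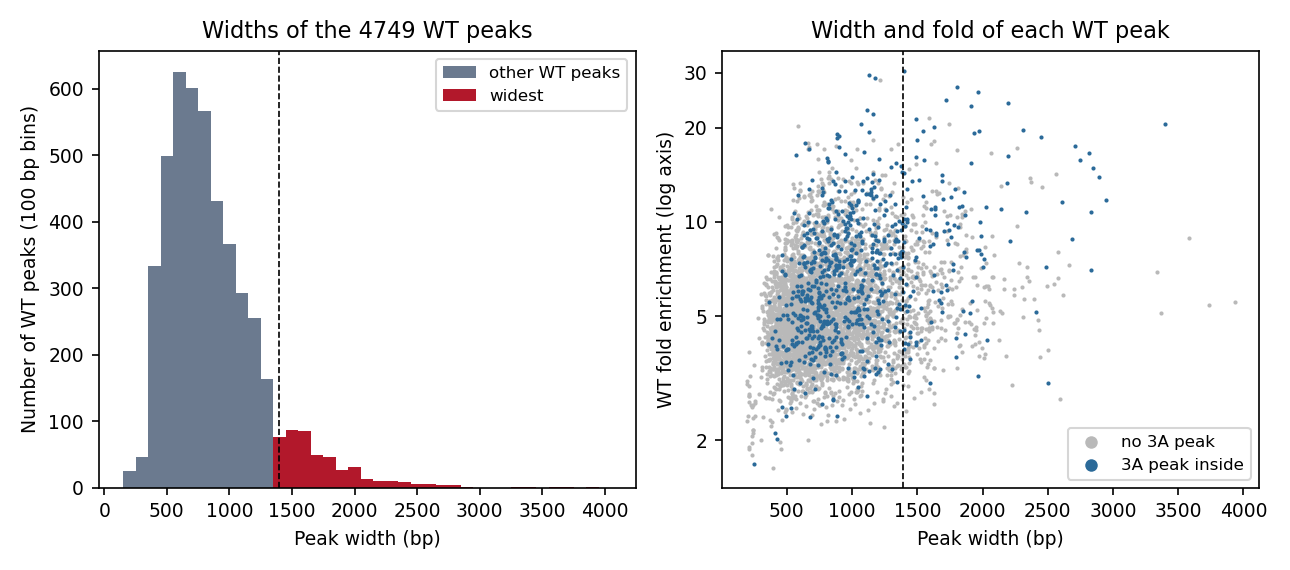
Left, the number of WT peaks in bins of 100 bp of width, with the widest in red and the dashed line at 1394 bp. Right, the fold enrichment of each WT peak (log axis) against its width, in blue where a 3A peak overlapped it: the widest peaks spread over nearly the whole range of fold, from 2.49 to 30.5.

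The 12 widest peaks lay at genes of varied function. The widest of all (chr16:85610966-85614898, 3933 bp, fold 5.54) held a start of GSE1, a gene of a chromatin co-repressor complex, and its summit was 64340 bp from the nearest protein-coding gene end, at GINS2. ANP32A and its paralog ANP32B, which encode acidic histone-binding phosphoproteins, both appeared: the ANP32A peak (chr15:68817545-68821279) was 3735 bp wide at fold 5.42 and the ANP32B peak (chr9:97982754-97985702) 2949 bp wide at fold 11.7. A second pair of paralogs, the AU-rich element binding proteins ZFP36L2 (chr2:43224408-43227807, 3400 bp, fold 20.5) and ZFP36L1 (chr14:68792894-68796230, 3337 bp, fold 6.91), was present as well. BCL11A, a zinc finger repressor, had a peak of 3582 bp (chr2:60549095-60552676, fold 8.91). CCND1, the gene of cyclin D1, which drives passage from G1 to S phase, had one of 3367 bp (chr11:69640497-69643863, fold 5.10).

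The rest of the 12 were at CBX3 and HNRNPA2B1, which share a bidirectional promoter and encode a heterochromatin protein and a splicing factor (chr7:26199764-26202655, 2892 bp, fold 13.9), FASN, the fatty acid synthase (chr17:82097098-82099944, 2847 bp, fold 14.9), ARHGDIA (chr17:81869525-81872357, 2833 bp, fold 10.8), HNRNPF, a splicing regulator (chr10:43407056-43409887, 2832 bp, fold 7.0), and CDC42EP1, a Cdc42 effector (chr22:37559993-37562810, 2818 bp, fold 16.6). A 3A peak overlapped 7 of these 12, at folds between 2.43 and 4.21 for the one nearest the WT summit, where the share was 26.1% over all widest peaks and 15.1% over all WT peaks. The 5 of the 12 without a 3A peak were those at GSE1, ANP32A, BCL11A, CCND1 and ZFP36L1, whose WT folds of 5.10 to 8.91 fell mostly below those of the 7, which were 7.0 to 20.5.

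**Figure D2:**
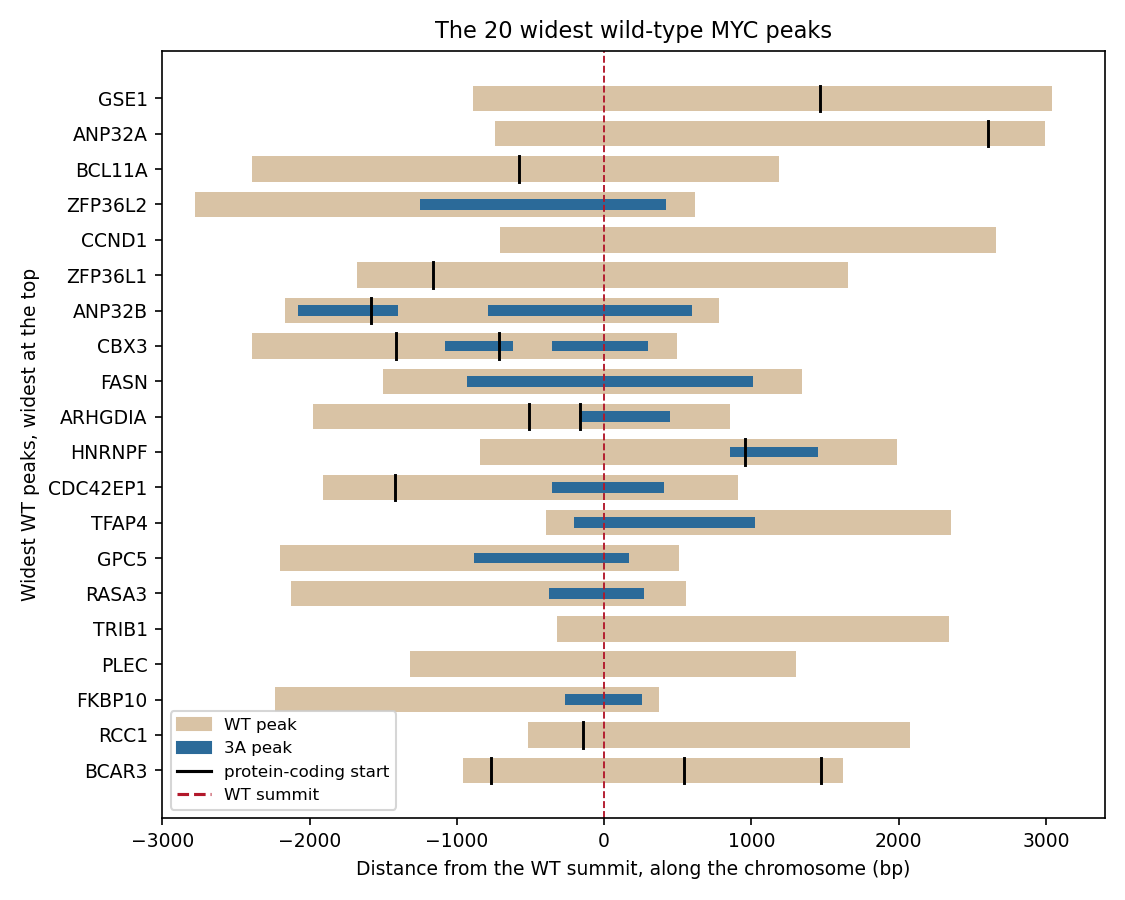
Extent of the 20 widest WT peaks (tan) and of the 3A peaks that overlap them (blue) as distance in bp from the WT summit (dashed line), named by a protein-coding gene whose start the peak holds or else by the nearest gene end, with listed protein-coding starts as black ticks. A 3A peak overlapped 11 of the 20, against 26.1% of all widest peaks and 15.1% of all WT peaks. At HNRNPF the 3A peak lay around the start, 1160 bp from the WT summit.

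The highest WT folds among the widest peaks stood at a peak over the start of PPRC1, a coactivator of mitochondrial biogenesis genes (chr10:102132700-102134098, 1399 bp, fold 30.5), at NCL, the gene of the nucleolar protein nucleolin (chr2:231463429-231465233, fold 27.0), at the small nucleolar RNA host gene SNHG15 (chr7:44985318-44987284, fold 26.0), at YDJC (chr22:21628662-21630383, fold 24.5) and at ING5, a subunit of histone acetyltransferase complexes (chr2:241700839-241703033, fold 24.0). All 5 overlapped a 3A peak, whose folds were 3.95, 3.28, 7.86, 3.74 and 7.34 in that order. The share was 40.5% over the widest peaks in the highest of the 4 groups by fold and 15.1% over all WT peaks. The lowest folds were at CNRIP1 (2.49), LINC02875 next to TBX2 (2.61), RCC1 and the host gene SNHG3 (2.71) and NIN (2.73). None of these 4 overlapped a 3A peak, where the share was 14.9% over the widest peaks in the lowest group by fold. Their local backgrounds of 24.6 to 32.4 fragments lay above the upper quartile of the widest peaks, 19.8.

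A 3A peak overlapped 124 of the widest peaks (26.1%, interval 22.4 to 30.2) and 593 of the other 4274 (13.9%, 12.9 to 14.9). Over all WT peaks the share was 15.1%. The difference was 12.2 percentage points (8.33 to 16.5). A long interval meets any other interval more often, so a rule that does not depend on width was set beside it: a 3A summit within 250 bp of the WT summit. By that rule the shares were 20.6% (98 widest peaks) and 13.1% (558 others), against 13.8% of all WT peaks, and the difference was 7.58 points (4.02 to 11.6).

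The widest peaks were also taller, and 3A overlap rose with WT fold. In the highest of the 4 groups by WT fold (6.70 to 30.5), 87 of 215 widest peaks (40.5%) and 270 of 972 others (27.8%) overlapped a 3A peak, a difference of 12.7 points (5.72 to 19.9). In the lower 3 groups the widest peaks stood at 14.9%, 10.5% and 16.8% and the others at 8.30%, 9.99% and 11.1%, with intervals of the difference that included 0 in each. With the 250 bp rule the highest group gave 32.6% and 26.3%, a difference of 6.22 points whose interval, -0.344 to 13.3, included 0. With the other WT peaks weighted to the fold groups of the widest, the difference by overlap was 8.05 points and that by the 250 bp rule 3.60 points. This last weighting was chosen after the data had been seen.

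Across 10 groups of equal size by WT width, from the widest to the narrowest, 3A overlap was 26.1, 22.9, 18.5, 17.3, 17.9, 16, 13.9, 9.05, 5.68 and 3.59%. By the 250 bp rule the widest group (20.6%) and the next (20.4%) hardly differed. Counted per length, the widest peaks held 16.3 3A overlaps per 100 kb and the other WT peaks 17.9.

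**Figure D3:**
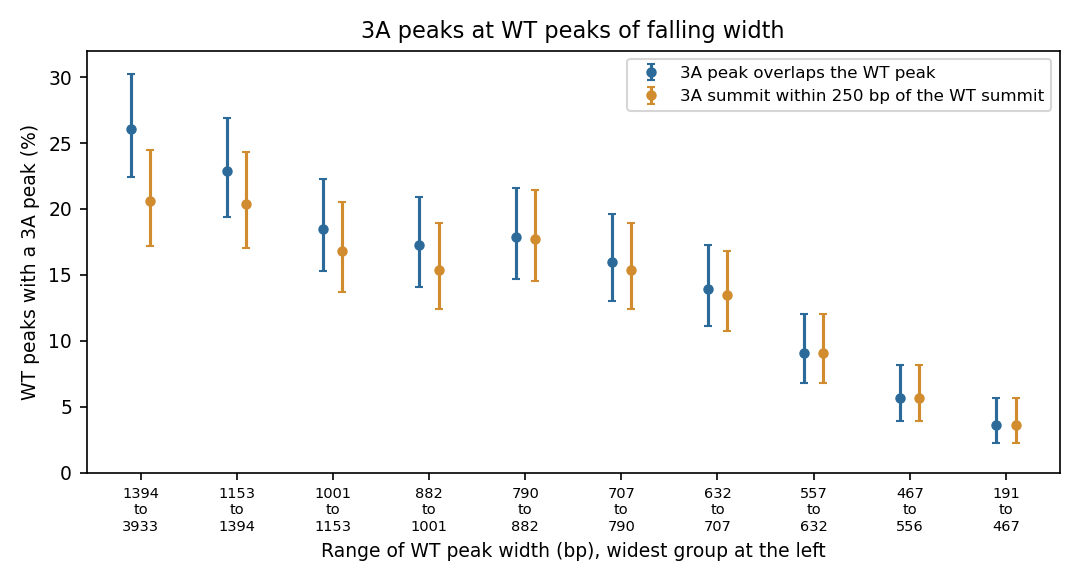
Share of WT peaks with a 3A peak (%) in 10 groups by WT width, by overlap (blue) and by a 3A summit within 250 bp of the WT summit (orange), with 95% Wilson intervals that cover counting error only. Both shares fall from the widest group (26.1 and 20.6%) to the narrowest (3.59%), and the intervals of the widest 2 groups overlap.

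Most widest peaks with a 3A peak held 1: 351 had none, 113 had 1, 10 had 2 and 1 had 3. Thus 11 (2.32%) overlapped more than 1 3A peak, against 5 of the other WT peaks (0.117%), a difference of 2.20 points (1.17 to 3.98). With all lists limited to a -log10 q of at least 10, 1 widest peak and none of the others held more than 1. In 10 of the 11, a 3A summit lay over 500 bp from the WT summit along the same WT interval, besides the one nearest to it.

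In the ANP32B peak, 3A peaks of fold 3.91 and 2.75 had summits 36 and 1743 bp from the WT summit. In the CBX3 and HNRNPA2B1 peak the values were fold 3.16 at 12 bp and 1.73 at 859 bp. At NCL, fold 3.28 stood at 372 bp and 1.95 at 1096 bp. The chaperone gene HSP90AB1 had fold 2.96 at 80 bp and 2.78 at 970 bp. In each of these the 3A peak nearer the WT summit was the stronger.

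The same order held at EIF3B and SNX8 (3.25 at 1 bp, 2.49 at 807 bp), where EIF3B encodes a translation initiation factor, at MCM7 and AP4M1 (3.28 at 127 bp, 2.22 at 996 bp), where MCM7 is a subunit of the replicative helicase, and at the stress-response factor gene ATF4 (2.60 at 5 bp, 1.92 at 574 bp). A peak inside CUEDC1 (4.13 at 17 bp, 3.44 at 794 bp) and one at the RNA helicase gene DDX17 (2.55 at 26 bp, 1.92 at 604 bp) followed it too. DDX17 fell outside the rule for named genes and was added after its values were seen. At the deubiquitinase gene USP3 the 3A summits lay on either side, at 309 bp (2.50) and 353 bp (2.85).

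The single peak with 3 3A peaks (chr21:8994070-8996573, 2504 bp) was unlike the rest. It lay 363698 bp from the nearest protein-coding gene end, at LOC101927345. Its WT fold was 3.06 over a local background of 43.5 fragments, and its 3A folds were 2.02, 2.30 and 2.14.

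The 3A peaks under the widest WT peaks were themselves wide. Their median width was 728 bp (136 peaks), against 570 bp for the 597 3A peaks in other WT peaks and 474 bp for the 112 3A peaks that overlapped no WT peak. Their median 3A fold was 3.39, against 3.46 and 3.04, and their median -log10 q was 13.2, against 13.2 and 9.82.

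A 7A peak overlapped 3 of the widest peaks (0.632%, 0.215 to 1.84) and 46 of the others (1.08%), with 1.03% over all WT peaks. The difference of -0.445 points had an interval of -0.993 to 0.793 that included 0. The peak over the starts of PCBP1, which encodes a poly(C)-binding protein, and ASPRV1 (chr2:70086011-70088206, 2196 bp) had folds of 16.3 for WT, 6.75 for 3A and 2.45 for 7A. The peak at RPL10A, a large-subunit ribosomal protein gene (chr6:35467987-35469712, 1726 bp), had 9.90, 4.70 and 2.52. The peak inside CUEDC1 (chr17:57874108-57875743, 1636 bp) had 11, 4.13 and 3.48. All 3 also held a 3A peak, as did 26.1% of all widest peaks and 15.1% of all WT peaks. The 7A and nearest 3A summits lay at most 50 bp from the WT summit. The lists were called separately, so the order of folds within a peak is given as deposited and is not a measured loss of binding.

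Among the 124 widest peaks with a 3A peak, the WT and nearest 3A summits were a median of 51.5 bp apart (quartiles 17 and 188, largest 1183), against 48.0 bp (19.0 and 99) in the 593 other pairs. The medians were alike, while the upper quartile was larger in the widest peaks, which leave room for a larger shift. As a share of WT width the median shift was 2.55% in the widest and 5.76% in the others. This share divides by the width that chose the peaks, so a like shift gives a lower share in the widest. The summits lay within 100 bp in 84 of 124 (67.7%) and in 449 of 593 (75.7%), a difference of -7.97 points whose interval, -17.2 to 0.428, included 0.

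The largest shift, 1183 bp, was in a peak on chromosome 8 whose nearest gene end was AZIN1, 18637 bp away. HNRNPF followed at 1160 bp, then HNRNPK and RMI1, a shared promoter of an RNA-binding protein and a genome-stability factor, at 1015 bp (chr9:83979404-83981394). YBX1, the gene of a Y-box cold-shock protein, stood at 974 bp (chr1:42681248-42683555) and OXLD1 with CCDC137 at 972 bp (chr17:81665322-81667137). In the 85 widest peaks that held both a coding start and a 3A peak, the median distance to the start was 221 bp for the WT summit and 234 bp for the 3A summit. Both distances were taken to the start nearest the WT summit, which favours the WT summit where a peak holds several starts. The 3A summit was nearer that start than the WT summit in 36 and farther in 49. These counts show no common shift to that start and cannot decide on a shift to other starts. In the other WT peaks the medians were 95 and 110 bp, with 181 nearer, 201 farther and 1 equal.

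The widest peaks were more often at genes, by a margin that rested on the distance allowed. A protein-coding gene began or ended within 1 kb of the summit in 325 of the widest (68.4%, 64.1 to 72.4) and in 2532 of the others (59.2%), against 60.2% over all WT peaks. The difference was 9.18 points (4.62 to 13.5), and within 500 bp it was -0.129 points (-4.86 to 4.59). For about the upper 50% of the widest peaks it was 4.34 points within 1 kb, with an interval of -2.09 to 10.3. Among the 10 groups by width, widest first, the share was 68.4, 77.3, 71.4, 66.9, 67.2, 61.3, 60.8, 47.4, 42.5 and 38.4%. It was highest in the next to widest and not in the widest. The 325 peaks reached 410 genes, with 245 peaks at 1 gene, 75 at 2 and 5 at 3. A gene end counts either end of the gene span, since the gene table gives no strand.

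Starts with strand were taken from the RefSeq promoter windows, which cover 15843 of 20037 protein-coding genes and none on chromosome 8, so 452 widest and 4126 other peaks enter. The widest peaks more often contained a coding start (313 of 452, 69.2%, against 50.6%, a difference of 18.7 points, 14 to 23). Their summits were less often right at it: 33.2% lay within 250 bp of a start, against 41.3% (-8.11 points, -12.6 to -3.40). Within 1000 bp the order turned, with 65.5% against 58.2% (7.27 points, 2.53 to 11.8). Across the 10 width groups, widest first, this share was 65.5, 73.1, 73.0, 66.4, 66.7, 62.1, 55.8, 48.5, 41.3 and 36.9%. The widest group was therefore not the highest, and the lower share of the others came from the narrow groups. Among peaks that held a start, the summit was a median of 265 bp from it in the widest and 114 bp in the others. A longer interval contains a start more often and leaves room for a larger distance to it. Neither the share that held a start nor this distance is therefore independent of the choice by width.

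The summit lay downstream of the start in 56.5% of the widest peaks that held one and in 58.4% of the others. Counted along the gene, the offset had a median of 43.0 bp in the widest (quartiles -167 and 382). In the others the median was 35.0 bp (-86.0 and 133). The offset thus leaned downstream in size in both, and by more bp in the widest. The widest peaks reached a median of 714 bp upstream and 956 bp downstream of the start, against 349 and 455 bp. The share of the interval downstream was almost equal, at 57.0 and 56.8%, so the extra width extended to both sides in like proportion.

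**Figure D4:**
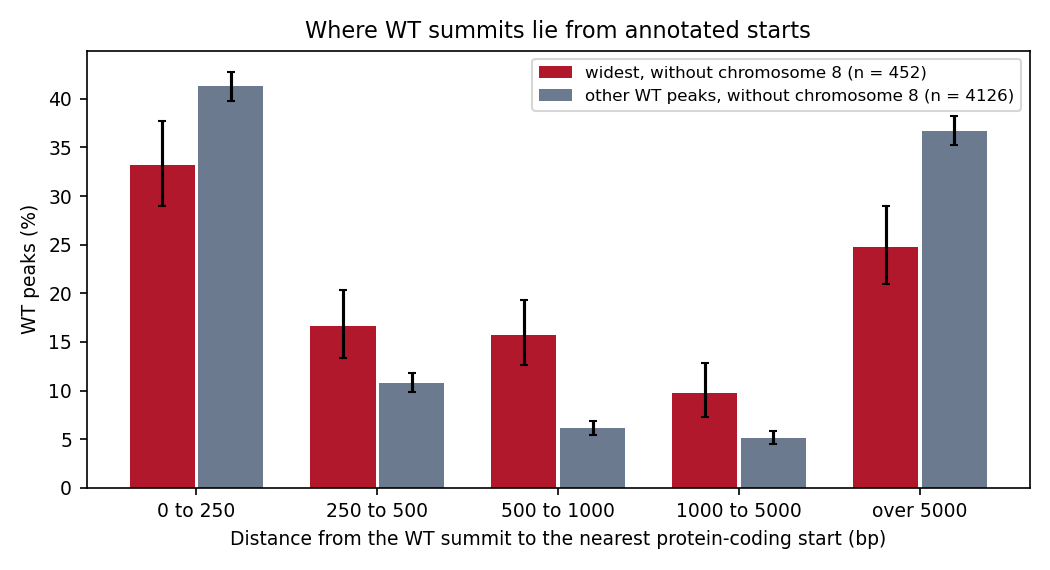
Share of WT peaks (%) by distance from the summit to the nearest listed protein-coding start, for 452 widest (red) and 4126 other WT peaks (grey) off chromosome 8, with 95% Wilson intervals that cover counting error only. The widest peaks are fewer at 0 to 250 bp (33.2 against 41.3%) and beyond 5000 bp (24.8 against 36.7%) and more frequent between.

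Where the widest peaks were not at a coding start, few fell in the class between genes. That class holds summits over 1 kb from any listed start or coding gene end and outside coding genes. It can include peaks at non-coding genes, as at the host genes SNHG15 and MIR17HG. Between genes stood 24 of 452 (5.31%) against 651 of 4126 (15.8%), a difference of -10.5 points (-12.5 to -7.77). Inside a protein-coding gene stood 12.4% against 14.5% (-2.13 points, -5.07 to 1.39), and at a non-coding start 5.09% against 3.95% (1.14 points, -0.654 to 3.63). At a coding gene end that is not a listed start, a class that includes genes without an entry among the promoter windows such as CCND1 and FASN, stood 53 (11.7%) against 7.54% (4.19 points, 1.41 to 7.57). The share with a 3A peak was higher in the widest peaks at each kind of site: 27.4 against 16.5% at coding starts, 24.5 against 13.8% at other coding gene ends, 16.1 against 7.51% inside genes, and 7 of 24 (29.2%) against 10.4% between genes. At non-coding starts it was 10 of 23 (43.5%, 25.6 to 63.2) against 13.5%. These shares by site count any overlap, which a long interval meets more often, and are not weighted by WT fold. The 250 bp rule was not applied by site.

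Paired promoters were more frequent under the widest peaks, which also have more room for them. Starts of coding genes on opposite strands lay in 49 of 452 (10.8%) against 5.28% (5.56 points, 2.91 to 8.82), as at CBX3 with HNRNPA2B1. A coding and a non-coding start lay together in 78 (17.3%) against 8.17%. Ends of at least 2 coding genes, in any orientation, lay inside 84 widest peaks (17.7%) against 6.72% of the others (11 points, 7.70 to 14.7). Within a fixed 1 kb of the summit, a window that does not depend on width, they were found at 80 (16.8%) against 11.4% (5.42 points, 2.17 to 9.17).

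The canonical E-box CACGTG, searched on both strands in the 250 bases before each start, was found in 38 of 115 windows under a widest summit (33.0%, 25.1 to 42.1). It was found in 270 of 1184 windows under another WT summit (22.8%, 20.5 to 25.3) and in 6.34% of all 35116 windows. For the variant CACGCG the shares were 32.2, 31.7 and 9.72%, so windows under widest and other WT summits hardly differed. These motifs do not contain each other but can share bases where they adjoin. Windows under widest summits had a median GC content of 71.2%, against 68.4 and 58.0%. CpG-containing motifs are more frequent in such sequence, whose part in the difference was not tested. The motif shares were also not weighted by WT fold, which was higher in the widest peaks, and its part was not tested either.

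Within the widest peaks CACGTG was more frequent in windows close to the summit. Of promoter windows whose start the peak held, CACGTG was in 41 of 172 (23.8%) where the summit was within 250 bp of the start and in 18 of 162 (11.1%) where it was farther. In the other WT peaks the shares were 16.9 and 11.5%. In the same windows of the widest peaks CACGCG went the same way, at 28.5 and 19.8%. The sequences CCAAT (19.8 and 33.3%) and GGGCGG (77.3 and 82.1%) went the other way. The bases under the farther summits lay outside these windows and were not read. Median GC content was nearly the same in both widest groups, 71.2 and 70.8%. Windows under a widest summit with a 3A peak held CACGTG in 12 of 35 (34.3%) and those without in 26 of 80 (32.5%). A match is only the presence of these letters in the window.

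**Figure D5:**
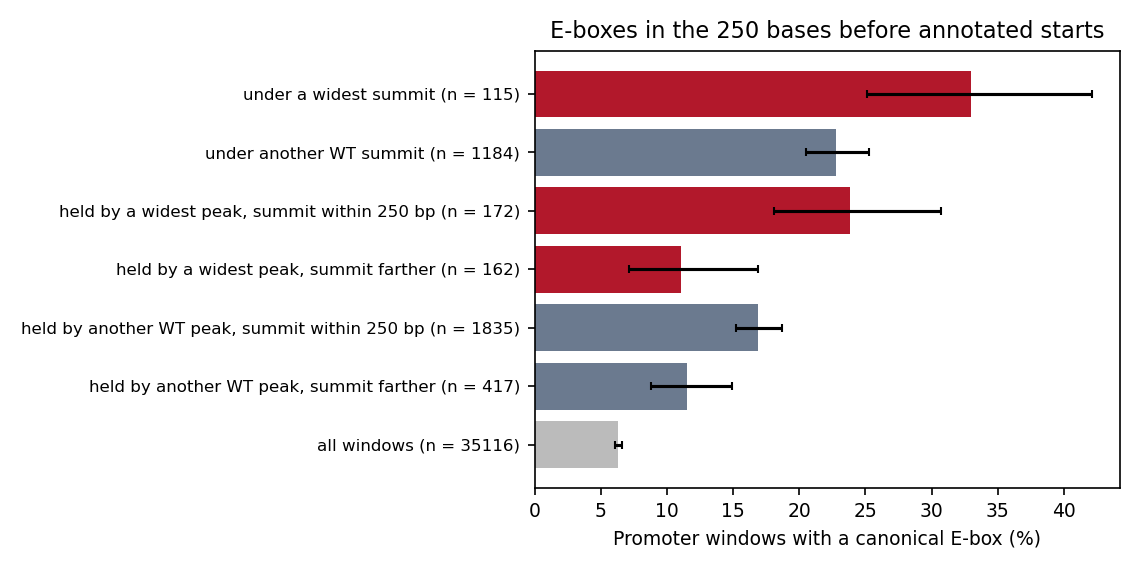
Share (%) of 250-base promoter windows that hold CACGTG, by the WT peak over them, with 95% Wilson intervals that cover counting error only. The share is 33.0% under widest summits, 22.8% under other WT summits and 6.34% over all windows.

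Of the 3352 protein-coding genes that begin or end within 1 kb of a WT summit, here called WT-bound, 410 (12.2%) were at one of the widest peaks. Glycolysis and lactate genes stood highest among the lists, with 6 of 11 WT-bound members (54.5%) at a widest peak: PKM (2506 bp, fold 3.89), the lactate transporter gene SLC16A1 (2331 bp, 10.7), the enolase gene ENO1 (1979 bp, 9.98), and those of HK2, GAPDH and LDHB. HK2, the gene of a hexokinase, had the highest fold of these, 19.5, with a 3A peak of 3.31 whose summit was 8 bp away. A 3A peak was present at SLC16A1, ENO1 and HK2 and not at PKM, GAPDH or LDHB. The share was 26.1% over all widest peaks and 15.1% over all WT peaks.

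Ribosome assembly genes had 12 of 49 WT-bound members (24.5%) at a widest peak, among them BOP1 (2139 bp, fold 13.1), NCL (1805 bp, 27.0) and NOLC1 (1743 bp, 13.3). Cytosolic ribosomal protein genes, although 66 of 79 were WT-bound, had 6 (9.09%), near the 12.2% of all bound genes: RPL10 (2079 bp, fold 5.14) and RPL10A (1726 bp, 9.90) were among them. Mitochondrial ribosomal protein genes had 2 of 31 (6.45%), MRPL40 and MRPS34, and aminoacyl-tRNA synthetase genes had 0 of 11.

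The list of translation factor genes, which also holds the repressor gene EIF4EBP1, had 6 of 31 (19.4%). The widest were at EIF4EBP1 (2046 bp, fold 6.10), EIF3B (2026 bp, 11.2) and EIF2B4 (1868 bp, 4.39). Nucleotide and one-carbon genes had 6 of 21 (28.6%), with PPAT, the first enzyme of purine synthesis (1846 bp, 11.2), MTHFD1 (1615 bp, 6.20) and GART (1596 bp, 4.92). Chaperone genes had 5 of 18 (27.8%), with GRPEL1 (1843 bp, 5.27), DNAJA1 (1819 bp, 4.00) and HSPD1 (1704 bp, 9.32), which shares its peak with HSPE1. Splicing genes had 3 of 24 (12.5%), HNRNPA1, SRSF1 and SRSF2. At SRSF1 the 3A summit was 627 bp from the WT summit.

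G1/S genes had 5 of 13 (38.5%), of which CCND1 (3367 bp), MCM7 (1686 bp, fold 5.17) and MCM4 (1529 bp, 4.48) were the widest. Non-coding snoRNA host genes, counted by the same distance, had 7 of 22 (31.8%), with SNHG3 (2595 bp, 2.71), SNHG15 (1967 bp, 26.0) and ZFAS1 (1684 bp, 5.51), and 5 of the 7 overlapped a 3A peak, against 26.1% of all widest peaks and 15.1% of all WT peaks. The 12.2% above is a share of protein-coding genes and not of such host genes. In the MYC, MAX and MLX network, MAX was at a widest peak by this distance, 1 of 6 (1497 bp, fold 8.69). A widest peak also lay inside MNT, which encodes a MAX-binding repressor (chr17:2392433-2394244, 1812 bp, fold 12.8), with its summit 7165 bp from the gene's end. MNT was named after its values were seen. BHLHE41, an E-box repressor of the circadian clock, was 1 of 7 clock genes, and CEBPB and ATF4 were 2 of 9 WT-bound genes in the list of E-box repressors and immediate early factors. No WT-bound member of the lists of CDK inhibitors (4), lysosome and autophagy (4), bone and mesenchymal (2) or neuron and blood genes (3) was at a widest peak. The replication-dependent histone and liver lists had no WT-bound member. Most of these lists hold few bound genes, and 1 gene more or less moves their shares by several points.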

How the data were processed

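Peaks were read from 1 list for each of the 3 induced proteins, which the authors made from immunoprecipitated libraries (2 per protein). In the submitters' processing notes MACS2, Picard, SAMtools, Bowtie2 and cutadapt appear with no version, and hg38, hg19 and mm10 with no role. Whether and how libraries were pooled is not given in the sources used here, nor are the control and the use of the mouse reads. Every deposited peak carries a fold enrichment (a ratio to local background at the summit) and -log10 values of a p-value and a q-value, all made by the authors. Positions are printed 1-based, so each printed start is 1 higher than the deposited value. The build was settled from the data: a GRCh38.p14 protein-coding gene began or ended within 1 kb of 60.2% of the 4749 WT summits, and of 5.96% after a move of 100 kb. The widest 475 peaks were taken.

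From these values the summit pileup k and local background b were recovered as the whole k for which fold = (k + 1)/(b + 1) and the Poisson tail gave the deposited p-value; all 4749 WT peaks had such a k. Overlap meant at least 1 bp. Intervals are 95% Wilson and Newcombe intervals, which cover counting error only, since neighbouring peaks are not independent and each protein has 1 list. The scripts were tested on simulated data. Python 3.11.15, numpy 2.4.6, pandas 2.3.3, scipy 1.17.1 and matplotlib 3.10.9 were used.

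The members and the gene lists were chosen with earlier results of these data known. The genes named were the 12 widest peaks, up to 10 with at least 2 3A peaks, those with a 7A peak, the 5 highest and 5 lowest folds, the 5 largest shifts, up to 3 members per gene list and the peaks on either side of the limit; other members are named where a count is small, and some genes that this rule takes are not reported here. Peaks on chromosome 8 were left out where starts with strand were needed. Alternatives varied the number of peaks (238 or 950), the overlap rule, the windows, the q-value minimum and the weighting by fold.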

Additional observations from a re-analysis of the deposited data

How the results depend on the processing

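Of 39 alternatives, 26 left a result inside its counting interval, 12 moved it and 1 turned the sign of a difference whose interval had excluded 0. The difference in 3A overlap (12.2 points) was 17.7 points for the smaller set of widest peaks (about the upper 50% of them), 7.58 for a 3A summit within 250 bp, 8.05 with the other peaks weighted by fold and 3.60 with both, the last chosen after seeing the data. The share with more than 1 3A peak (2.32%) was 4.20% for that smaller set and 0.211%, or 1 peak, at -log10 q of at least 10. The difference at gene ends (9.18 points) was 4.34 for the smaller set, 15.9 for the 950 widest, 13.6 from the peak centre, 14.8 within 5000 bp and -0.129 within 500 bp, where it changed sign. That for ends of more than 1 gene (11 points) was 22.8 with all genes and 5.42 within 1 kb of the summit. Beyond what the settings themselves change, the cause was not tested. The 7A difference, whose interval included 0, ranged from -0.598 to 0.241 points and was above 0 for the smaller set (0.241) and the 950 widest (0.0260), the share of summit pairs within 100 bp from -8.09 to -2.42, and the share of WT-bound listed genes at a widest peak less that of unlisted ones (6.01 points) from 4.32 to 9.57. No paired analysis was possible because each protein has 1 peak list and no values per library. For the same reason no library could be left out, and read depth, which can set both the number and the width of called peaks, is unknown. The 3A and 7A lists are shorter than the WT list, and a site missing from them may lie under their calling limit.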

Other observations

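Non-coding genes were also found at the widest peaks. A long non-coding RNA gene had an end within 1 kb of the summit in 117 (24.6%) against 18.9% of the other WT peaks, a difference of 5.70 points (1.85 to 9.93). For microRNA genes the values were 10 (2.11%) against 0.842% (1.26 points, 0.253 to 3.00) and for small nucleolar RNA genes 7 (1.47%) against 0.398% (1.08 points, 0.281 to 2.62). For tRNA genes they were 5 (1.05%) against 0.936% (0.117 points, -0.573 to 1.53). The peak of rank 14 by width, named here after its values were seen, lay over the start of MIR17HG, the host gene of the miR-17 cluster (chr13:91346977-91349686, 2710 bp, WT fold 17.5), with a 3A peak of fold 4.08 whose summit was 26 bp away.

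Another WT peak lay within 1 kb of 3.79% of the widest peaks and of 5.10% of the rest, and within 20 kb of 22.9% and 20.6%. The median gap to the next WT peak was 63.4 kb for the widest and 78.9 kb for the rest. By chromosome, the share of WT peaks that were among the widest ran from 17 of 263 on chromosome 3 (6.46%, 4.07 to 10.1) to 28 of 183 on chromosome 22 (15.3%, 10.8 to 21.2).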
